A study of Mus musculus with 14 samples.

Results

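The comparison set wild-type intestinal crypt cells with high EGFP against wild-type crypt cells with low EGFP, gene by gene. Its groups held 7 of the 14 arrays of the series, chosen by their titles. These were 3 whose title ends in WT-High and 4 whose title ends in WT-Low. The study asked what loss of Atg7, a gene needed to form autophagosomes, does to intestinal stem cells, and the wild-type arrays are its controls. The wild-type mice carried the Lgr5-EGFP-IRES-CreERT2 allele, which places EGFP and a tamoxifen-inducible Cre under the control of Lgr5. The Atg7KO mice carried Atg7 fl/fl as well. Mice of both genotypes were given tamoxifen for 5 consecutive days, and tissue was taken 1 month afterwards, so the wild-type cells had also been exposed to tamoxifen and active Cre. The labels give no age, sex or strain background. Crypts were released with EDTA, dissociated with dispase and sorted, and both gates were CD24 low. In the labels the EGFP high gate stands for stem cells and the EGFP low gate for transit amplifying cells. Each sample came from 1 mouse per the labels, 1 ng of its total RNA was amplified, and the product was hybridised to 1 Affymetrix Mouse Gene 2.0 ST array. Sample names below join gate and title number, and values over several samples are given in the order WT-High-388, WT-High-411, WT-High-412 and WT-Low-341, WT-Low-407, WT-Low-409, WT-Low-411. WT-High-411 and WT-Low-411 share a title number, and the labels do not say whether both came from the same mouse. They were fitted as unpaired.

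Lgr5 is a receptor for R-spondins and marks the crypt base columnar cells, the dividing stem cells of the small intestine, which depend on Wnt signals. Their daughters enter the transit amplifying zone above, where Notch activity sets the choice between absorptive cells and secretory cells, and cells low in Notch activity express Atoh1. EGFP made from the Lgr5 locus is stable enough to be diluted among the daughters, so a low EGFP gate is a usual way to collect them, and the allele is known to be silent in part of the crypts. A difference between the gates in RNA of a sorted population does not tell whether fewer cells of a type or less RNA per cell is behind it, and fewer cells of a type and less RNA per cell cannot be told apart here.

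The values are log2 levels from RMA, which removes background, quantile normalises probes across arrays and summarises them per probe set. A difference of 1 on this scale is a doubling of signal, RMA can narrow large differences, and levels of different genes cannot be set against each other because each probe set has its own response. The precision is set by the number of arrays. The SD of all values was 1.90 on WT-Low-411 and 1.99 to 2.06 on the other 6. WT-Low-411 also had the lowest median correlation with the samples of its own gate, 0.946 against 0.965 to 0.982 for the others, and it read -35.1 on the second principal component, where the other 6 lay between -13.9 and 21.9. Leaving it out was one of the alternatives tried.

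Testing was limited to probe sets with 1 gene symbol whose level was at or above the 40th percentile on 3 or more arrays, 15873 genes in all. A gene was called when its adjusted p was under 0.05 in limma's moderated test, with Benjamini-Hochberg adjustment over all genes tested. Calls made up 2.44% of the genes tested. They divided into 193 genes (1.22%) with more signal in EGFP high cells and 194 (1.22%) with less. The median difference of all genes was 0.03, 54.7% of the differences were positive, and 2348 genes (14.8%) had an unadjusted p under 0.05. Losses in EGFP high cells were the larger ones. Among called genes the median difference was 0.99 for those higher and -1.20 for those lower, and differences beyond 2 on the log2 scale were found for 4 genes that were higher and for 31 that were lower. On 192 of the 193 genes called higher, all EGFP high samples lay above all EGFP low samples, and all 194 genes called lower were separated in the other direction. Over all genes tested the groups were separated that way for 9.97% and 6.52%. Some calls passed the filter only through the gate where they were high: 11 genes called lower were under the 40th percentile on all EGFP high arrays, and 9 called higher were under it on all EGFP low arrays. For these the size of the difference is uncertain.

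**Figure D1:**
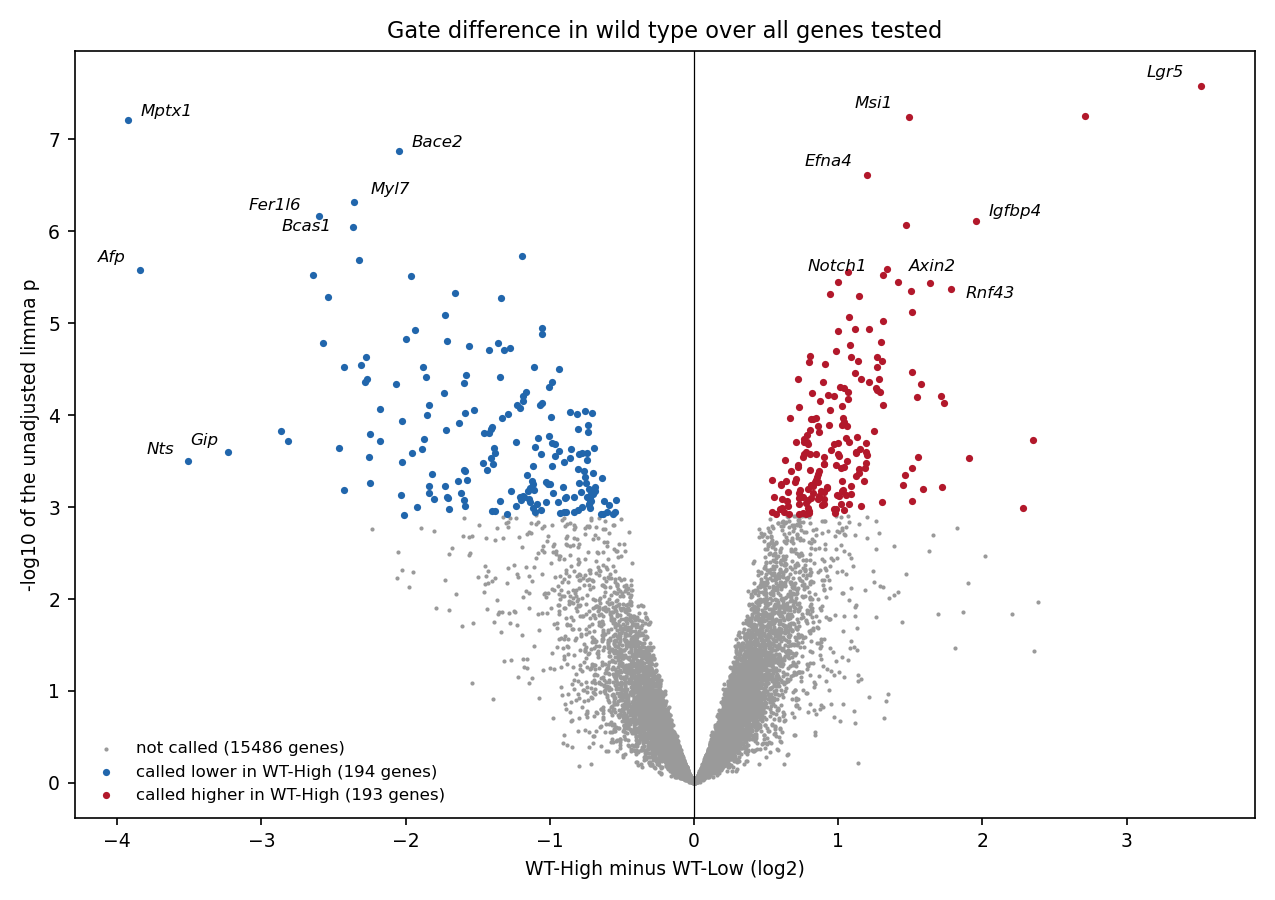
Difference between EGFP high and EGFP low wild-type samples (WT-High minus WT-Low, log2, horizontal axis) against -log10 of limma's unadjusted p (vertical axis), 1 point per gene for 15873 genes. The 193 genes called higher are red, the 194 called lower are blue, and among the called genes 31 lie below -2 and 4 above 2.

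How many genes passed depended on single samples. Leaving out 1 sample of 3 or 4 gave between 103 calls (without WT-High-412) and 343 calls (without WT-Low-411), and the count was 119 without WT-High-411, 146 without WT-High-388, 158 without WT-Low-409, 245 without WT-Low-407 and 304 without WT-Low-341. Across these and 11 other alternative settings none of the called genes changed direction, and 69 of them (36 higher and 33 lower) passed under every setting in which they were tested. These 69 are called stable calls below. For most other called genes that are named, the range of the adjusted p over the 18 alternatives is given.

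The sort itself was checked on the gene that drives EGFP. Lgr5 read 9.30, 8.69 and 9.07 in the EGFP high samples and 6.07, 6.00, 5.29 and 4.65 in the EGFP low samples. The means were 9.02 ± 0.31 (SD, n = 3) and 5.50 ± 0.67 (SD, n = 4), a difference of 3.52, or 11.4-fold. Lgr5 set the gate, so this shows that the sort took place and is no finding. Cd24a, used to gate both populations, read 10.11, 10.74 and 10.47 in the EGFP high samples and 10.22, 10.33, 10.74 and 9.74 in the EGFP low samples, and the groups overlapped.

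Of the other marker genes, Olfm4 and Axin2 were higher and Cck lower in EGFP high cells. Olfm4, a secreted glycoprotein of crypt base stem cells, read 12.17, 11.87 and 12.02 in the EGFP high samples and 11.00, 11.20, 11.25 and 10.40 in the EGFP low samples. Its difference was 1.05 (SE 0.21, adjusted p = 0.0190), and it no longer passed on leaving out any single EGFP high sample (adjusted p 0.00259 to 0.0835 over the alternatives). Axin2, a feedback inhibitor and direct target of Wnt signalling, read 9.00, 8.56 and 8.94 in the EGFP high samples and 7.46, 7.46, 7.38 and 6.48 in the EGFP low samples, and its difference of 1.64 (SE 0.23, adjusted p = 0.00265) was a stable call. Cck, the hormone cholecystokinin of enteroendocrine cells, was 4.86-fold lower in EGFP high cells, at 5.52, 6.75 and 6.72 in the EGFP high samples and 8.13, 8.55, 8.91 and 8.85 in the EGFP low samples (difference -2.28, SE 0.40, adjusted p = 0.00901), and was also a stable call. In each of the 3 genes no EGFP high sample overlapped an EGFP low one.

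**Figure D2:**
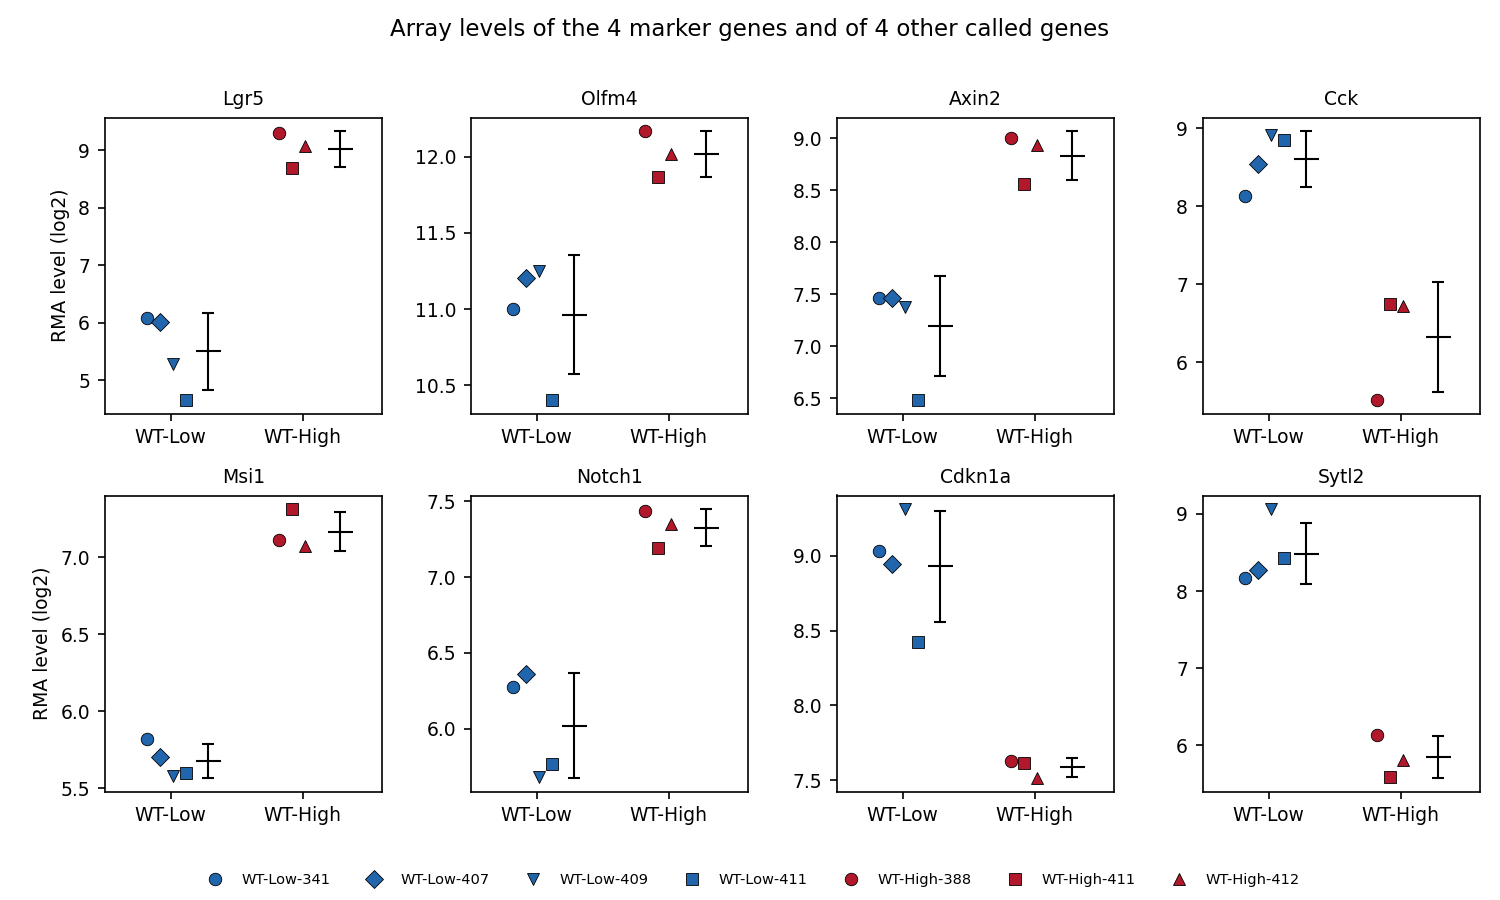
RMA levels (log2, vertical axes, scaled per panel and not from 0) of Lgr5, Olfm4, Axin2, Cck, Msi1, Notch1, Cdkn1a and Sytl2 on each wild-type array. Blue symbols are EGFP low and red symbols EGFP high samples, bars give the mean and SD (n = 4 and n = 3), and the gates do not overlap in any of the 8 panels.

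Genes known from crypt base stem cells were higher in EGFP high cells almost throughout. Of 30 tested members of the Lgr5 stem cell list, 22 (73.3%, against 1.22% of all genes) were called higher and none lower. All 30 differences were positive, with a median of 1.07 against 0.03 over all genes. The list was drawn up from genes reported in sorted Lgr5 cells, Lgr5 itself is a member, and the gate was set on it. On WT-Low-411 the list mean was lowest, at 6.69 against 7.06 to 7.18 in the other EGFP low samples and 8.05 to 8.21 in EGFP high ones. Without that sample 15 members were called (median 0.96). The count was 10 without WT-High-412, 12 without WT-High-388, 13 without WT-High-411 and 14 without WT-Low-409.

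Within the list the smallest adjusted p after that of Lgr5, and equal to it, was that of Msi1, an RNA-binding protein of stem and early progenitor cells. It read 7.11, 7.31 and 7.08 in the EGFP high samples and 5.82, 5.70, 5.58 and 5.60 in the EGFP low samples, a difference of 1.49 (SE 0.15, adjusted p = 0.000247), with SDs of 0.13 and 0.11 within the gates. Igfbp4, which binds insulin-like growth factors, read 7.50, 7.66 and 7.74 in the EGFP high samples and 5.76, 6.23, 5.65 and 5.05 in the EGFP low samples and differed by 1.96 (SE 0.24, adjusted p = 0.00129). Rnf43, a membrane E3 ligase that removes Frizzled receptors, read 9.02, 8.51 and 8.88 in the EGFP high samples and 6.97, 7.42, 6.36 and 7.34 in the EGFP low samples and differed by 1.78 (SE 0.25, adjusted p = 0.00292). Rgmb, a BMP co-receptor, read 9.56, 9.31 and 9.49 in the EGFP high samples and 7.95, 8.45, 8.27 and 7.78 in the EGFP low samples, and its difference was 1.34 (SE 0.18, adjusted p = 0.00256). The transcription factor Sox9 read 9.52, 9.39 and 9.57 in the EGFP high samples and 8.49, 8.51, 8.66 and 7.98 in the EGFP low samples, with a difference of 1.08 (SE 0.17, adjusted p = 0.00611). All 5 were stable calls, as were Aqp4 (a water channel, 1.51), Zbtb38 (a methyl-CpG binding protein, 1.31), Scn2b (a sodium channel subunit, 1.27) and Cdca7 (a chromatin protein of dividing cells, 1.14).

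Other classical markers passed less firmly. Smoc2, a secreted matricellular protein, read 9.00, 9.07 and 9.15 in the EGFP high samples and 8.00, 8.11, 7.56 and 6.76 in the EGFP low samples and differed by 1.46 (SE 0.32, adjusted p = 0.0305), with an adjusted p of 0.00474 to 0.123 over the alternatives and the call lost on leaving out WT-Low-409, WT-Low-411 or any single EGFP high sample. Ascl2, the transcription factor that specifies crypt base stem cells, had a small difference of 0.78 (SE 0.19, adjusted p = 0.0494), from 4.58, 5.33 and 5.06 in the EGFP high samples and 4.31, 4.00, 4.25 and 4.28 in the EGFP low samples. Its adjusted p ranged from 0.00546 to 0.245, and the call was lost on leaving out WT-Low-341, WT-Low-407, WT-Low-409, WT-Low-411, WT-High-411 or WT-High-412. Tnfrsf19, a Wnt-induced receptor of the tumour necrosis factor family, differed by 1.51 (SE 0.33, adjusted p = 0.0271), and its call was lost on leaving out WT-Low-407, WT-Low-409, WT-Low-411, WT-High-388 or WT-High-412 (0.00549 to 0.132). The 8 members that were not called included Aqp1 (1.03), Phlda1 (0.81), Prom1 (0.51), Mex3a (0.50) and Znrf3 (0.25), the paralog of Rnf43.

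Wnt feedback and target genes were split between strong members and members near 0. Of 25 tested, 7 (28%, against 1.22% of all genes) were called higher and none lower. The median was 0.47 (0.37 without WT-Low-411, 0.30 without WT-High-411). Besides Axin2, the proto-oncogene Myc was a stable call, at 9.65, 9.74 and 9.78 in the EGFP high samples and 9.09, 9.00, 8.68 and 8.92 in the EGFP low samples (difference 0.80, SE 0.13, adjusted p = 0.00745). The hyaluronan receptor Cd44 read 8.05, 7.70 and 7.55 in the EGFP high samples and 6.47, 6.71, 6.62 and 6.03 in the EGFP low samples (difference 1.31, SE 0.24, adjusted p = 0.0120). The receptor tyrosine kinase Ephb3, which keeps cells at the crypt base, read 7.75, 7.30 and 7.32 in the EGFP high samples and 5.99, 6.46, 6.05 and 6.16 in the EGFP low samples (difference 1.29, SE 0.23, adjusted p = 0.0102). Lrig1, a negative regulator of the EGF receptor, read 8.62, 8.29 and 8.36 in the EGFP high samples and 7.33, 7.43, 7.21 and 7.56 in the EGFP low samples (difference 1.04, SE 0.18, adjusted p = 0.00964). Cd44, Ephb3 and Lrig1 each lost the call only without WT-High-388, the highest sample for all of them, at adjusted p = 0.0656, 0.0585 and 0.0539; the lowest values over their alternatives were 0.00235, 0.00198 and 0.000767. Without that sample 2 of the 25 genes were called. Sp5, a transcriptional repressor induced by Wnt, differed by 0.99 (SE 0.23, adjusted p = 0.0395), but lost the call when any of the 7 samples was left out (0.0227 to 0.169). The secreted or cytoplasmic inhibitors Notum (-0.04), Wif1 (-0.05), Dkk4 (-0.01) and Nkd1 (0.21) were not called.

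In the list of Wnt receptors, ligands and regulators 2.94% were called higher, which is 1 gene, against 1.22% of all genes. Of 34 tested Wnt receptors, ligands and regulators, 1 was called, the secreted inhibitor Sfrp5 (0.97, SE 0.24, adjusted p = 0.0466; 0.00404 to 0.233 over the alternatives, call lost on leaving out WT-Low-341, WT-Low-407, WT-Low-409, WT-High-411 or WT-High-412). Their median was 0.12. The R-spondin receptor Lgr4 differed by 0.03 (SE 0.14), the co-receptors Lrp5 and Lrp6 by 0.38 (SE 0.30) and 0.14 (SE 0.20), and Fzd7, the main Frizzled of these stem cells, by 0.69 (SE 0.22, adjusted p = 0.132). The beta-catenin gene Ctnnb1 differed by 0.57 (SE 0.23, adjusted p = 0.257) and Tcf7l2, its main DNA-binding partner in the gut, by -0.56 (SE 0.14, adjusted p = 0.0557).

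Sequence upstream of the called genes was scanned for 3 short motifs, because members of the Wnt target and secretory cell lists were among the called genes. The motifs were ATCAAAG with CTTTGAT on the other strand (TCF/LEF), CAAAGTC with GACTTTG (HNF4), and CAGGTG with CACCTG (a form of E-box). The window was the 250 bases before the start of transcription in the RefSeq annotation of mouse build GRCm38.p6, available for 12119 genes tested, 155 genes called higher and 140 called lower. A TCF/LEF match was found before 3.87% of genes called higher, 4.29% of those called lower and 3.11% of all. An HNF4 match was found before 2.58%, 5.0% and 4.36%, and an E-box before 20.0%, 25.7% and 19.7%. These shares are descriptions of short windows, and TCF/LEF sites of Wnt targets often lie outside them. Some letters of the TCF/LEF and HNF4 motifs can overlap. The stretches that follow show the match in capitals with the bases around it, 5' to 3' on the gene's own strand, for 2 called genes of the stem cell and Wnt lists, for the secretory regulator Atoh1 and for the marker Cck. The match begins 104 bases before the start in Sp5, 202 in Tnfrsf19, 148 in Atoh1 and 210 in Cck.
Sp5, chr2:70474779-70474865, plus strand: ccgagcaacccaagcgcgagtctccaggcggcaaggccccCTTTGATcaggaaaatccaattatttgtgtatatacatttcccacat
Tnfrsf19, chr14:61038143-61038229, minus strand: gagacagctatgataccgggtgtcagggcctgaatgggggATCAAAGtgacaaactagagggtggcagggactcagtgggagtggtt
Atoh1, chr6:64728937-64729023, plus strand: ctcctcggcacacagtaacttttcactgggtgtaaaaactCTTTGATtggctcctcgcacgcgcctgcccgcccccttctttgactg
Cck, chr9:121495859-121495944, minus strand: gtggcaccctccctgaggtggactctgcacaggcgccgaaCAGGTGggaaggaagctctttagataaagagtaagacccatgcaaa
The first 3 hold a TCF/LEF match and the last an E-box. Sp5 and Tnfrsf19 were called higher and Atoh1 and Cck lower, so a TCF/LEF match was present in genes of both directions.

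Notch receptors and a Notch target were higher in EGFP high cells. Of 30 tested Notch pathway genes, 4 (13.3%, against 1.22% of all genes) were called higher and none lower. The list as a whole was near all genes, with a median of 0.09 against 0.03 and 63.3% positive differences against 54.7%. The receptor Notch1 was a stable call, at 7.44, 7.19 and 7.35 in the EGFP high samples and 6.27, 6.36, 5.68 and 5.76 in the EGFP low samples (difference 1.31, SE 0.18, adjusted p = 0.00256). Hes1, the repressor through which Notch holds back Atoh1, read 8.09, 8.15 and 8.02 in the EGFP high samples and 7.08, 7.49, 7.34 and 6.95 in the EGFP low samples and differed by 0.87 (SE 0.17, adjusted p = 0.0171). Its call was lost on leaving out any single EGFP high sample (adjusted p 0.00330 to 0.0833). The receptor Notch2 (0.78, SE 0.19, adjusted p = 0.0425; 0.0217 to 0.169) and the ubiquitin ligase Dtx4 (1.01, SE 0.18, adjusted p = 0.00955; 0.00110 to 0.0602) were called too, Notch2 not on leaving out WT-Low-341, WT-Low-409, WT-Low-411 or any single EGFP high sample and Dtx4 not without WT-High-412. Leaving out WT-High-412 reduced the count to 1, and leaving out either other EGFP high sample reduced it to 2. The ligands expressed by secretory progenitors did not pass. Dll1 read 6.47, 6.25 and 6.52 in the EGFP high samples and 6.88, 6.82, 7.63 and 6.51 in the EGFP low samples (difference -0.55, SE 0.24, adjusted p = 0.296) and Dll4 read 5.73, 6.06 and 6.17 in the EGFP high samples and 6.90, 7.01, 7.40 and 6.11 in the EGFP low samples (difference -0.87, SE 0.29, adjusted p = 0.138), with WT-Low-411 next to the EGFP high samples in both.

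Among Eph receptors and ephrins, 2 of 15 (13.3%, against 1.22% of all genes) were called higher. These were Ephb3 and Efna4, an ephrin-A ligand that read 6.52, 6.51 and 6.55 in the EGFP high samples and 5.48, 5.26, 5.33 and 5.25 in the EGFP low samples and differed by 1.20 (SE 0.13, adjusted p = 0.000645) in a stable call. Efnb2, an ephrin of differentiated cells higher up the crypt, read 5.14, 5.26 and 5.25 in the EGFP high samples and 7.10, 7.01, 7.26 and 4.90 in the EGFP low samples. It was lower in EGFP high cells than in 3 EGFP low samples but not than in WT-Low-411, and was not called (difference -1.35, SE 0.48, adjusted p = 0.179). Without WT-Low-411, 1 member of the list was called lower.

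Of 25 BMP genes 1 (4%) was called higher and 1 (4%) lower, and of 21 EGF receptor pathway genes 1 (4.76%) was called higher. The 2 called higher, Rgmb and Lrig1, were already named above with the stem cell and Wnt target genes. The share over all genes was 1.22% in each direction. Rgmb was the member called higher among 25 BMP genes and Id4, an inhibitor of basic helix-loop-helix factors, the one called lower (-0.88, SE 0.22, adjusted p = 0.0483; 0.00259 to 0.226 over the alternatives, call lost on leaving out WT-Low-341, WT-Low-407, WT-Low-409 or any single EGFP high sample). The receptors Bmpr1a (0.12) and Bmpr2 (0.13) were close to 0. Of 21 EGF receptor pathway genes only Lrig1 was called, and Egfr (0.28, SE 0.21) and Erbb2 (0.38, SE 0.32) were not. Of 11 tested reserve and regenerative stem cell markers, Lrig1 and the tetraspanin Cd81 (0.72, SE 0.16, adjusted p = 0.0271; 0.00392 to 0.140, call lost on leaving out WT-Low-409 or any single EGFP high sample) were called higher. The 2 calls made up 18.2% of the reserve marker list, against 1.22% of all genes. Bmi1 (-0.30), Tert (0.20) and Hopx (0.62) were not called.

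Goblet cell genes were lower in EGFP high cells as a group. Of 21 tested, 14 (66.7%, against 1.22% of all genes) were called lower and none higher. The median was -1.46 against 0.03 over all genes. The list mean was 8.41, 8.04 and 8.18 in the EGFP high samples and 9.65, 9.40, 10.02 and 9.45 in the EGFP low ones. Sytl2, which tethers secretory granules, read 6.13, 5.59 and 5.81 in the EGFP high samples and 8.17, 8.27, 9.06 and 8.43 in the EGFP low samples, 6.25-fold lower in EGFP high cells (difference -2.65, SE 0.36, adjusted p = 0.00256). Bcas1 read 5.37, 4.87 and 5.00 in the EGFP high samples and 7.63, 7.04, 8.06 and 7.07 in the EGFP low samples (difference -2.37, SE 0.29, adjusted p = 0.00129). Both were stable calls and both were highest in WT-Low-409, the sample with the highest list mean.

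Other called members were regulators and products of the lineage. Atoh1, the transcription factor of secretory fate, read 8.30, 7.78 and 7.88 in the EGFP high samples and 9.49, 8.96, 9.72 and 9.36 in the EGFP low samples, with a difference of -1.39 (SE 0.30, adjusted p = 0.0258; 0.00256 to 0.126 over the alternatives, call lost on leaving out WT-Low-341, WT-Low-409 or any single EGFP high sample). Muc2, the gel-forming mucin, read 10.97, 9.85 and 10.22 in the EGFP high samples and 11.98, 11.84, 12.37 and 11.66 in the EGFP low samples (difference -1.62, SE 0.38, adjusted p = 0.0383; 0.00259 to 0.182), with the call lost on leaving out WT-Low-341, WT-Low-407, WT-Low-409, WT-High-411 or WT-High-412. The mucus protein Clca1 differed by -2.18 (SE 0.40, adjusted p = 0.0125) and lost the call only without WT-High-411 or WT-High-412 (0.000568 to 0.0750). The lectin-like mucus protein Zg16 differed by -2.25 (SE 0.48, adjusted p = 0.0232), and the trefoil peptide Tff3 by -1.08 (SE 0.22, adjusted p = 0.0189). Without 1 sample the calls for Zg16 (0.00171 to 0.121) and Tff3 (0.00282 to 0.108) were lost for 5 and 4 of the 7 samples. Spdef, which drives goblet maturation, was separated between the gates but not called (-1.44, SE 0.44, adjusted p = 0.115). As few as 2 goblet genes were called without WT-High-411 or WT-High-412, 5 without WT-Low-409, 7 without WT-High-388 and 9 without WT-Low-341, while the median stayed between -1.55 and -1.36.

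**Figure D3:**
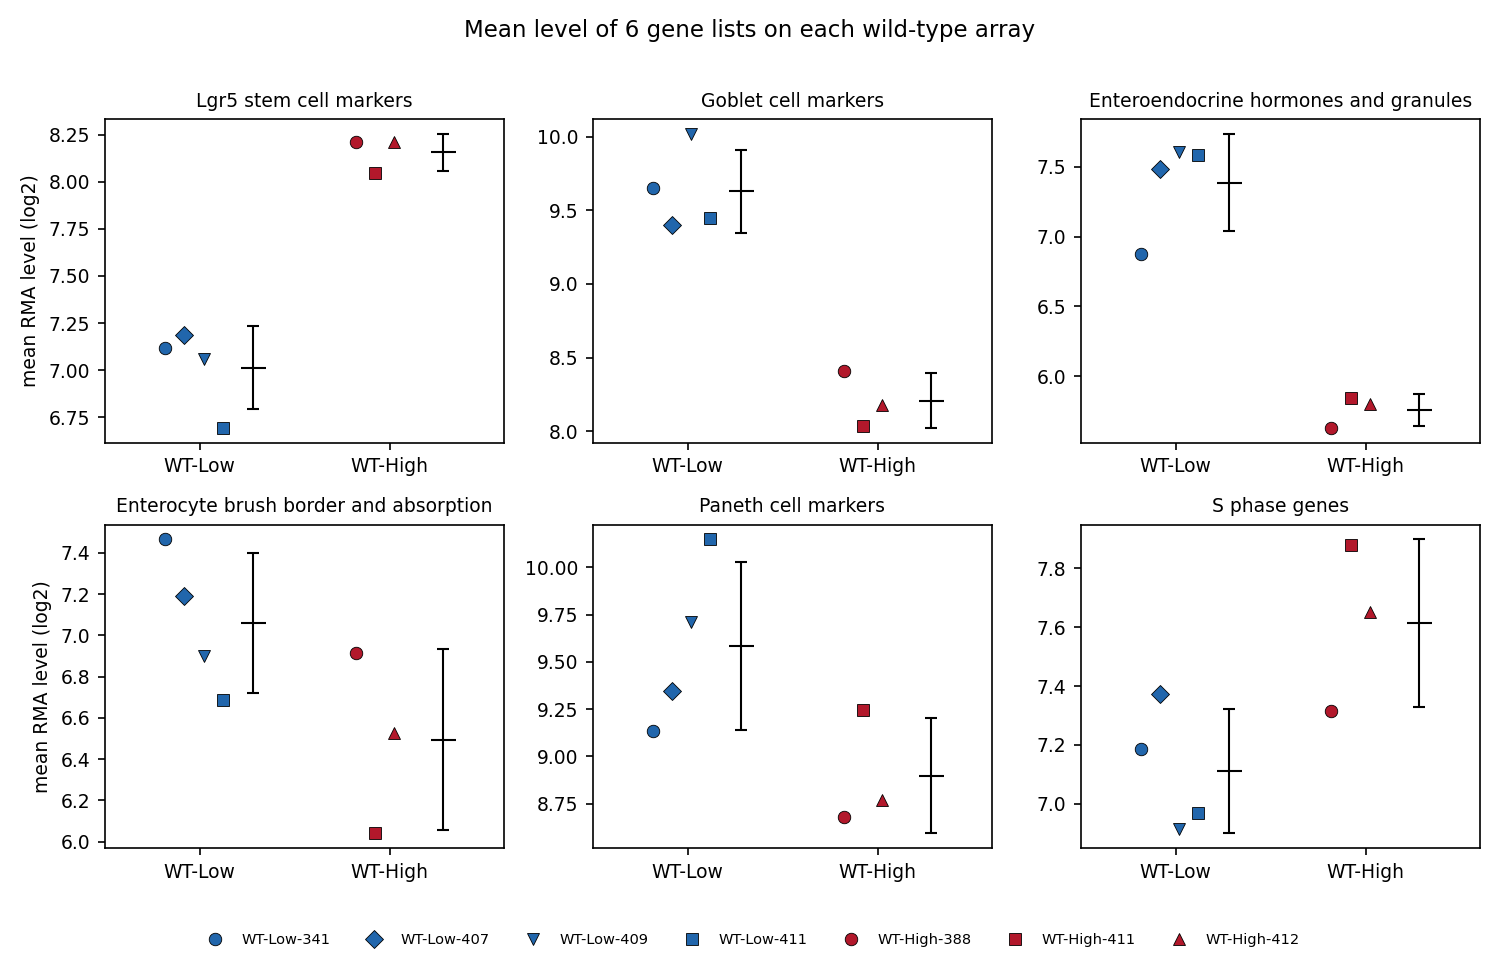
Mean RMA level (log2, vertical axes, scaled per panel and not from 0) of 6 gene lists on each wild-type array, with the mean and SD of each gate. The Lgr5 stem cell, goblet and enteroendocrine hormone lists do not overlap between EGFP low (blue, n = 4) and EGFP high (red, n = 3) samples, whereas the brush border, Paneth and S phase lists do.

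Enteroendocrine hormones and granule proteins showed the largest list difference. Of 25 tested, 11 (44%, against 1.22% of all genes) were called lower and none higher. In all, 24 differences were negative, and the median was -1.84. The list mean was 5.63 to 5.85 in EGFP high samples and 7.48 to 7.60 in 3 EGFP low samples, with WT-Low-341 lower at 6.87. Nts (neurotensin) read 5.18, 4.90 and 3.97 in the EGFP high samples and 8.29, 9.17, 7.65 and 7.66 in the EGFP low samples, 11.4-fold lower in EGFP high cells (difference -3.51, SE 0.75, adjusted p = 0.0244). Gip, the incretin of K cells, read 6.51, 9.47 and 8.58 in the EGFP high samples and 10.56, 11.25, 12.16 and 11.69 in the EGFP low samples (difference -3.23, SE 0.67, adjusted p = 0.0223). Gip was lowest in WT-High-388, as Cck was. Their calls were lost on leaving out WT-Low-407, WT-Low-409 or any single EGFP high sample for Nts (0.00114 to 0.125) and without WT-Low-409, WT-High-388 or WT-High-412 for Gip (0.00705 to 0.0961).

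Hormones of several enteroendocrine cell types were among the called genes. Tac1, the substance P precursor, differed by -2.46 (SE 0.51, adjusted p = 0.0213). Tph1, the enzyme that makes serotonin in enterochromaffin cells, differed by -2.03 (SE 0.48, adjusted p = 0.0391). Ghrl (ghrelin) differed by -2.01 (SE 0.50, adjusted p = 0.0495) and Gcg, the precursor of GLP-1, by -1.59 (SE 0.35, adjusted p = 0.0279). The adjusted p over the alternatives was 0.00413 to 0.103 for Tac1, 0.00857 to 0.158 for Tph1, 0.0254 to 0.184 for Ghrl and 0.00259 to 0.147 for Gcg. Trpa1 was under the 40th percentile on all EGFP high arrays, so the size of its difference is uncertain. This irritant receptor channel of enterochromaffin cells read 3.05, 3.05 and 3.19 in the EGFP high samples and 4.35, 6.21, 6.15 and 4.89 in the EGFP low samples and was a stable call like Cck (difference -2.31, SE 0.39, adjusted p = 0.00760). The granule protein Chga (-2.05, SE 0.58, adjusted p = 0.0809) and the hormone Sst (-2.06, SE 0.64, adjusted p = 0.117) were separated between the gates but not called. With 1 sample left out the list count was 2 without WT-High-412 or WT-Low-409, 3 without WT-High-388 or WT-High-411, 5 without WT-Low-407 and 6 without WT-Low-411.

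The transcription factors of the same lineage were less uniform. Of 23 tested, 2 (8.7%) were called higher and 1 (4.35%) lower, against 1.22% of all genes in each direction. The median was -0.43. Sox4, an early factor of the lineage that is also expressed in crypt base cells, was higher, at 7.50, 7.94 and 7.78 in the EGFP high samples and 6.01, 6.71, 7.05 and 6.20 in the EGFP low samples (difference 1.25, SE 0.25, adjusted p = 0.0171; 0.00181 to 0.0958, call lost on leaving out WT-High-411 or WT-High-412). The homeobox gene Mnx1 was higher by 1.13 (SE 0.23, adjusted p = 0.0185) and Lmx1a, of enterochromaffin cells, lower at -0.98 (SE 0.20, adjusted p = 0.0197). Both calls were lost on leaving out WT-Low-409 or any single EGFP high sample, and that of Lmx1a also on leaving out WT-Low-407 (0.00392 to 0.0902 and 0.00549 to 0.0843 over the alternatives). Lmx1a reached the 40th percentile on 1 of the 3 EGFP high arrays, so the size of its difference is uncertain. Neurog3, the factor that starts the endocrine fate, overlapped between the gates, at 6.32, 7.90 and 7.44 in the EGFP high samples and 6.34, 7.96, 8.51 and 7.78 in the EGFP low samples (difference -0.43, SE 0.48, adjusted p = 0.748). Late factors were lower without passing, with -1.18 (SE 0.40, adjusted p = 0.149) for Neurod1 and -1.94 (SE 0.59, adjusted p = 0.107) for Rfx6. WT-Low-341 had the lowest mean over this list too, 5.23 against 5.71 to 5.81, and without it 3 members were called lower.

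Of the Paneth cell genes 10% were called lower, against 1.22% of all genes. Of 20 tested, 2 were called lower. Mptx1, a pentraxin-like protein, read 4.66, 3.27 and 3.17 in the EGFP high samples and 7.93, 6.88, 8.00 and 7.69 in the EGFP low samples and was a stable call (difference -3.92, SE 0.39, adjusted p = 0.000247). It reached the 40th percentile on 1 of the 3 EGFP high arrays, so the size of the loss is uncertain. The stress protein Nupr1 read 5.56, 6.15 and 5.66 in the EGFP high samples and 8.07, 7.40, 8.04 and 8.36 in the EGFP low samples (difference -2.18, SE 0.44, adjusted p = 0.0195; 0.00235 to 0.0853, call lost on leaving out WT-Low-409 or any single EGFP high sample). The lysozyme gene Lyz1, the defining Paneth product, overlapped between the gates at 10.34, 11.67 and 11.30 in the EGFP high samples and 10.01, 11.37, 11.83 and 12.17 in the EGFP low samples (difference -0.24, SE 0.51, adjusted p = 0.878). Alpha-defensins, whose near-identical copies can share probes, ranged from -0.74 (Defa26) to 0.84 (Defa21), and none was called. The list mean of 9.25 in WT-High-411 lay above the 9.13 of WT-Low-341. Of 16 tuft cell genes tested none was called and none had an unadjusted p under 0.05.

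Enterocyte genes tended to be lower in EGFP high cells. Of 26 brush border and absorption genes, 2 (7.69%, against 1.22% of all genes) were called lower, with a median of -0.46. Cdhr5, a protocadherin of the intermicrovillar links, read 9.04, 8.65 and 8.70 in the EGFP high samples and 9.86, 9.68, 10.20 and 9.68 in the EGFP low samples and was a stable call (difference -1.06, SE 0.16, adjusted p = 0.00504). Krt20, a keratin of differentiated enterocytes, read 9.16, 7.48 and 8.00 in the EGFP high samples and 10.07, 10.01, 10.18 and 9.51 in the EGFP low samples (difference -1.73, SE 0.39, adjusted p = 0.0351; 0.00210 to 0.178, call lost on leaving out WT-Low-341, WT-Low-407, WT-Low-409, WT-High-411 or WT-High-412). The largest differences, in the disaccharidase Sis and the alkaline phosphatase Alpi, did not pass. Sis read 8.40, 6.01 and 7.20 in the EGFP high samples and 9.88, 9.14, 8.88 and 8.13 in the EGFP low samples (difference -1.80, SE 0.47, adjusted p = 0.0599), and Alpi differed by -1.79 (SE 0.63, adjusted p = 0.171). WT-High-388 was the highest EGFP high sample for Krt20, Sis and Alpi, and its list mean of 6.92 lay above those of WT-Low-409 (6.90) and WT-Low-411 (6.69). Without WT-High-388, 3 brush border genes were called (median -0.66), and without WT-Low-411, 5.

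Lipid handling genes had a median of -0.42, and 1 of 24, the cholesterol transporter Npc1l1, was called lower (-0.91, SE 0.21, adjusted p = 0.0357; 0.00305 to 0.178, call lost on leaving out WT-Low-341, WT-Low-407, WT-Low-409, WT-High-411 or WT-High-412). That call was 4.17% of the list, against 1.22% of all genes called lower. The fatty acid binding protein Fabp1 read 10.35, 8.98 and 9.32 in the EGFP high samples and 10.91, 10.38, 10.11 and 10.56 in the EGFP low samples and was not called (difference -0.94, SE 0.33, adjusted p = 0.165). Of 30 genes of drug and retinoid metabolism, the cytochrome Cyp2d26 was called lower (-1.23, SE 0.25, adjusted p = 0.0196; 0.00663 to 0.106, call lost on leaving out WT-Low-409, WT-High-388 or WT-High-411), and the median was -0.52. That was 3.33% of the drug and retinoid list, against 1.22% of all genes. The list count was 4 without WT-Low-411 (median -0.71), 0 without WT-Low-409 or WT-High-411, and 10 with array weights. Genes of fatty acid oxidation (25 tested, 0 called, median 0.05), nuclear oxidative phosphorylation (33 tested, 0 called, 0.07) and cholesterol synthesis (20 tested, 0 called, -0.12) gave 0, 2 and 2 genes with an unadjusted p under 0.05. Of 26 glycolytic genes 1 (3.85%, against 1.22% of all genes) was called lower, and the list median was -0.02. It was the phosphofructokinase Pfkp (-1.06, SE 0.26, adjusted p = 0.0476, range 0.00323 to 0.156). Its call was lost on leaving out WT-Low-341, WT-Low-407 or any single EGFP high sample.

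**Figure D4:**
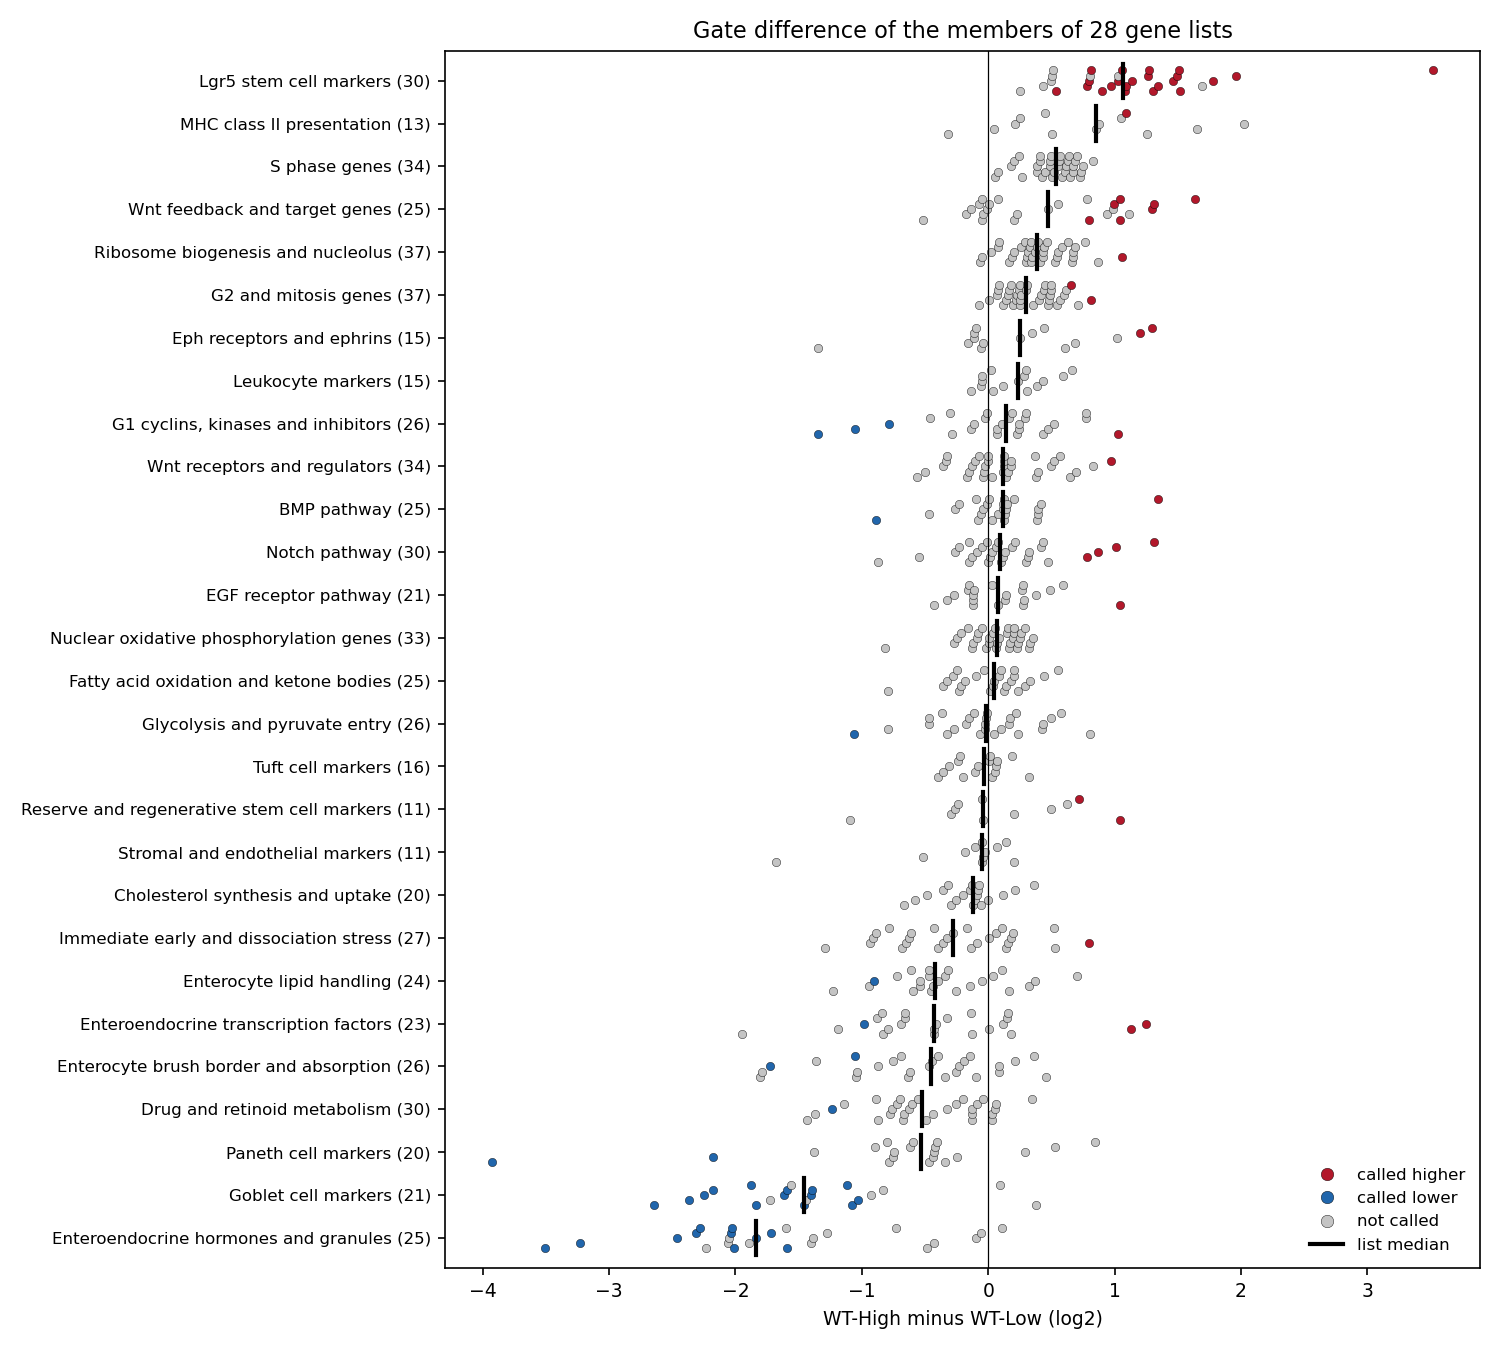
Difference between EGFP high and EGFP low wild-type samples (log2, horizontal axis) for each tested member of 28 gene lists, ordered by median, with the number of members tested in brackets. Red and blue points are called genes, grey points are not called, black bars are medians; the medians run from -1.84 (enteroendocrine hormones and granules) to 1.07 (Lgr5 stem cell markers).

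Replication genes leaned towards the EGFP high gate. All 34 tested S phase genes had a positive difference, 20 had an unadjusted p under 0.05, none was called over all genes, and the median was 0.54. Over all genes tested 54.7% of the differences were positive and 14.8% had an unadjusted p under 0.05 in limma. The replicative helicase subunit Mcm2 read 7.59, 8.44 and 8.07 in the EGFP high samples and 7.30, 7.68, 7.43 and 6.97 in the EGFP low samples (difference 0.69, SE 0.26, adjusted p = 0.206), and Pcna, the sliding clamp, read 11.43, 11.78 and 11.55 in the EGFP high samples and 11.21, 11.44, 11.30 and 11.41 in the EGFP low samples (difference 0.25, SE 0.13, adjusted p = 0.395). The list mean was 7.31, 7.88 and 7.65 in EGFP high and 7.19, 7.37, 6.91 and 6.97 in EGFP low samples, so WT-High-388 lay below WT-Low-407. Without WT-High-411 the median was 0.39, and without WT-High-388 it was 0.67. Of 37 G2 and mitosis genes, 36 were positive with a median of 0.30, and 2 were called: Ect2, a guanine nucleotide exchange factor of cytokinesis (0.81, SE 0.19, adjusted p = 0.0402; 0.00809 to 0.178, call lost on leaving out WT-Low-341, WT-Low-409, WT-Low-411 or any single EGFP high sample), and the spindle checkpoint kinase Ttk (0.66, SE 0.15, adjusted p = 0.0381; 0.00372 to 0.146, call lost on leaving out WT-Low-341, WT-Low-407, WT-Low-409 or any single EGFP high sample). These 2 calls were 5.41% of the G2 and mitosis list, against 1.22% of all genes. The proliferation marker Mki67 read 9.80, 9.37 and 9.50 in the EGFP high samples and 9.34, 9.34, 9.32 and 9.45 in the EGFP low samples and was not called (0.20, SE 0.15, adjusted p = 0.588). No gene of the S phase or the G2 and mitosis list was called higher in the gate labelled transit amplifying, while goblet and enteroendocrine genes were, so the gate is called EGFP low here.

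Of 26 tested genes of the G1 phase, 3 (11.5%) were called lower and 1 (3.85%) higher, against 1.22% of all genes in each direction. Their median was 0.14. The 16 positive ones made up 61.5%, near the 54.7% over all genes. The 3 called lower restrain the cell cycle. Cdkn1a, the p21 inhibitor of cyclin-dependent kinases, read 7.63, 7.61 and 7.51 in the EGFP high samples and 9.03, 8.95, 9.31 and 8.43 in the EGFP low samples, 2.54-fold lower in EGFP high cells and a stable call (difference -1.34, SE 0.23, adjusted p = 0.00884). The retinoblastoma gene Rb1 read 7.06, 7.18 and 7.65 in the EGFP high samples and 8.24, 8.21, 8.53 and 8.40 in the EGFP low samples (difference -1.05, SE 0.19, adjusted p = 0.0119; 0.00650 to 0.0652, call lost on leaving out WT-High-388 or WT-High-411). Cdkn2b, the p15 inhibitor, differed by -0.78 (SE 0.18, adjusted p = 0.0381; 0.00564 to 0.163, call lost on leaving out WT-Low-341, WT-Low-407, WT-Low-411 or any single EGFP high sample). Cdk6, a cyclin-dependent kinase of G1, was higher, at 8.74, 8.65 and 8.78 in the EGFP high samples and 7.70, 7.87, 8.07 and 7.16 in the EGFP low samples (difference 1.02, SE 0.20, adjusted p = 0.0157; 0.00138 to 0.0729, call lost on leaving out any single EGFP high sample). On leaving out WT-High-388 or WT-High-411, 1 member was called lower. The inhibitors Cdkn1b (0.24), Cdkn1c (-0.46), Cdkn2a (-0.29), Cdkn2c (0.11) and Cdkn2d (-0.03) were not called.

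Of 37 genes of ribosome biogenesis, 35 were positive with a median of 0.38, and 16 had an unadjusted p under 0.05. Over all genes tested these shares were 54.7% and 14.8%. The one called member was Nhp2, a protein of box H/ACA particles, at 8.61, 9.13 and 8.72 in the EGFP high samples and 8.01, 7.90, 7.84 and 7.29 in the EGFP low samples (difference 1.06, SE 0.21, adjusted p = 0.0159; 0.00309 to 0.101, call lost on leaving out WT-High-411 or WT-High-412). That call was 2.7% of the list, against 1.22% of all genes called higher. The median fell to 0.28 with the SD of each array as a covariate.

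MHC class II genes leaned towards the EGFP high gate with large spread. Over all genes tested, 54.7% were positive, 9.97% were separated with EGFP high above, and 1.22% were called higher. Of 13 class II genes tested, 12 were positive with a median of 0.85, 9 were separated between the gates and 1 was called. That was Ciita, the class II transactivator, at 7.07, 6.94 and 6.19 in the EGFP high samples and 5.99, 5.28, 5.60 and 5.71 in the EGFP low samples (difference 1.09, SE 0.26, adjusted p = 0.0385; 0.0293 to 0.170, call lost on leaving out WT-Low-407, WT-Low-409, WT-Low-411, WT-High-388 or WT-High-411). H2-Aa, the alpha chain of a class II molecule, read 9.83, 10.20 and 9.14 in the EGFP high samples and 8.74, 6.56, 8.00 and 7.52 in the EGFP low samples (difference 2.02, SE 0.58, adjusted p = 0.0850), and the invariant chain Cd74 read 11.41, 11.47 and 10.87 in the EGFP high samples and 10.63, 9.83, 10.36 and 10.78 in the EGFP low samples (difference 0.85, SE 0.33, adjusted p = 0.217). WT-High-412 was the lowest EGFP high sample for these 3 genes. Leukocyte markers were measured beside them because antigen-presenting cells express the same genes. Of 26 listed, 15 passed the filter, 11 were positive and 0 were called. The actin-bundling protein Lcp1 (0.66) and the co-receptor Cd14 (0.43) had an unadjusted p under 0.05 (0.0150 and 0.0291, limma), both higher in EGFP high cells as the class II genes were. Their median was 0.23, and their mean was 4.84 to 5.16 in EGFP high and 4.64 to 4.98 in EGFP low samples. The pan-leukocyte gene Ptprc and the B cell genes Cd79a and Ms4a1 did not pass the filter. The part of leukocytes in the class II values was not tested. Of 11 tested stromal and endothelial markers, 0 were called and 1 had an unadjusted p under 0.05, namely Vim at 5.55, 6.14 and 6.08 in the EGFP high samples and 6.33, 8.11, 8.11 and 7.87 in the EGFP low samples (difference -1.68, SE 0.47, adjusted p = 0.0765).

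Immediate early genes, which dissociation can induce, gave 1 call among 27 (3.7%, against 1.22% of all genes called higher). It was Myc, which was already described as a Wnt target. All EGFP high samples lay below all EGFP low samples for 9 of the 27 and above them for 2. Over all genes tested these shares were 6.52% and 9.97%. Positive differences made up 37%, against 54.7% of all genes. The median was -0.28, and without WT-Low-411 1 member was called lower. Fos (-0.63, SE 0.41, adjusted p = 0.527), Egr1 (-0.68, SE 0.36, adjusted p = 0.413) and Junb (-0.89, SE 0.33, adjusted p = 0.193) did not pass.

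Some of the largest differences lay outside these groups. Of genes higher in EGFP high cells, Gkn3, a gastrokine, read 7.10, 6.48 and 7.76 in the EGFP high samples and 5.83, 5.78, 4.39 and 4.82 in the EGFP low samples (difference 1.90, SE 0.40, adjusted p = 0.0232; 0.00561 to 0.132, call lost on leaving out WT-Low-409, WT-Low-411, WT-High-388 or WT-High-412). The urea transporter Slc14a1 read 7.19, 7.45 and 7.84 in the EGFP high samples and 6.18, 5.63, 6.01 and 5.22 in the EGFP low samples (difference 1.73, SE 0.32, adjusted p = 0.0119; 0.00110 to 0.0693, call lost on leaving out WT-High-411 or WT-High-412). The endothelin precursor Edn1 (1.57, SE 0.28, adjusted p = 0.00917; 0.00404 to 0.0526), the adaptor Pik3ap1 (1.72, SE 0.31, adjusted p = 0.0104; 0.00143 to 0.0645) and the semaphorin Sema7a (1.55, SE 0.28, adjusted p = 0.0105; 0.000575 to 0.0580) each lost the call without 1 sample, WT-High-388 for Edn1 and WT-High-412 for the other two. Emp2 (1.72; adjusted p 0.00385 to 0.137), Bex1 (1.59; 0.0112 to 0.150), Acsm3 (1.55; 0.00653 to 0.116) and Rdh9 (1.51; 0.00991 to 0.169) completed the leading 15 together with genes already named, and each lost its call without 5 or more of the 7 samples.

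Among the losses, Afp, alpha-fetoprotein, read 3.37, 3.57 and 3.27 in the EGFP high samples and 5.60, 7.53, 8.21 and 7.64 in the EGFP low samples, with a difference of -3.84 (SE 0.52, adjusted p = 0.00256) and WT-Low-341 as the lowest EGFP low sample. All EGFP high arrays were under their 40th percentile for Afp, so the size of its loss is uncertain. Fer1l6, a ferlin, read 4.48, 3.94 and 4.00 in the EGFP high samples and 6.76, 6.45, 7.48 and 6.28 in the EGFP low samples (difference -2.60, SE 0.31, adjusted p = 0.00129), and Rgs2, a regulator of G protein signalling, read 6.49, 5.23 and 5.63 in the EGFP high samples and 9.08, 8.41, 7.84 and 8.12 in the EGFP low samples (difference -2.57, SE 0.41, adjusted p = 0.00596). The calpain Capn9 differed by -2.54 (SE 0.36, adjusted p = 0.00292), the actin-severing protein Scin by -2.42 (SE 0.41, adjusted p = 0.00760), the myosin light chain Myl7 by -2.36 (SE 0.28, adjusted p = 0.00110) and the phosphatase-like granule protein Ptprn2 by -2.32 (SE 0.31, adjusted p = 0.00254). Ptprn2 read 5.74, 5.82 and 5.77 in the EGFP high samples and 7.97, 7.97, 8.23 and 8.23 in the EGFP low samples. These 7 genes were stable calls. Gsdmc2, a gasdermin, read 3.95, 4.38 and 3.35 in the EGFP high samples and 6.35, 6.80, 5.63 and 8.23 in the EGFP low samples (difference -2.87, SE 0.56, adjusted p = 0.0171; 0.00122 to 0.0902, call lost on leaving out WT-High-388 or WT-High-412), and its close copies Gsdmc3 and Gsdmc4 can share signal with it. Serpina1b, an alpha-1-antitrypsin gene with close copies, read 4.71, 4.00 and 4.96 in the EGFP high samples and 8.56, 7.76, 7.39 and 5.80 in the EGFP low samples (difference -2.82, SE 0.57, adjusted p = 0.0195; 0.000590 to 0.105, call lost on leaving out WT-Low-407, WT-Low-409 or any single EGFP high sample), and WT-Low-411 was its lowest EGFP low sample.

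The same gates sorted from Atg7KO mice gave an independent set of 7 arrays, which share no sample with the wild-type ones but were fitted in the same model and share its estimate of the spread. Their own comparison called 711 genes higher (4.48%) and 1023 lower (6.44%) in EGFP high cells. Of the 193 genes higher in wild type, 183 (94.8%) were also positive in the knockout, where 92 were called higher, which is 47.7% of the wild-type and 12.9% of the knockout calls. Of the 194 lower genes, 185 (95.4%) were negative and 145 called lower, 74.7% of the wild-type and 14.2% of the knockout calls. Over all genes tested 56.6% had the same sign in both genotypes.

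Sizes were close for the losses and smaller for the gains. The 194 lower genes had a median of -1.23 in the knockout against -1.20 in wild type, and the 193 higher genes 0.60 against 0.99. Choosing genes for passing in wild type tends to enlarge their differences there, and its part in these sizes was not tested. Lgr5 differed by 3.32 in the knockout against 3.52 in wild type, Olfm4 by 1.08 against 1.05, Axin2 by 1.23 against 1.64 and Cck by -2.06 against -2.28. Hes1 (0.09 against 0.87), Myc (0.16 against 0.80) and Ttk (-0.33 against 0.66) were not among the 92 genes called higher in both genotypes. Their difference between genotypes did not pass either (limma, adjusted p = 0.243, 0.2255 and 0.176). The list medians in the knockout were 1.00 for Lgr5 stem cell markers, -1.98 for goblet genes and -1.66 for enteroendocrine hormones. They were -1.02 for brush border genes, -0.03 for S phase genes, -0.13 for G2 and mitosis genes, -0.06 for MHC class II genes and -0.77 for cholesterol synthesis.

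**Figure D5:**
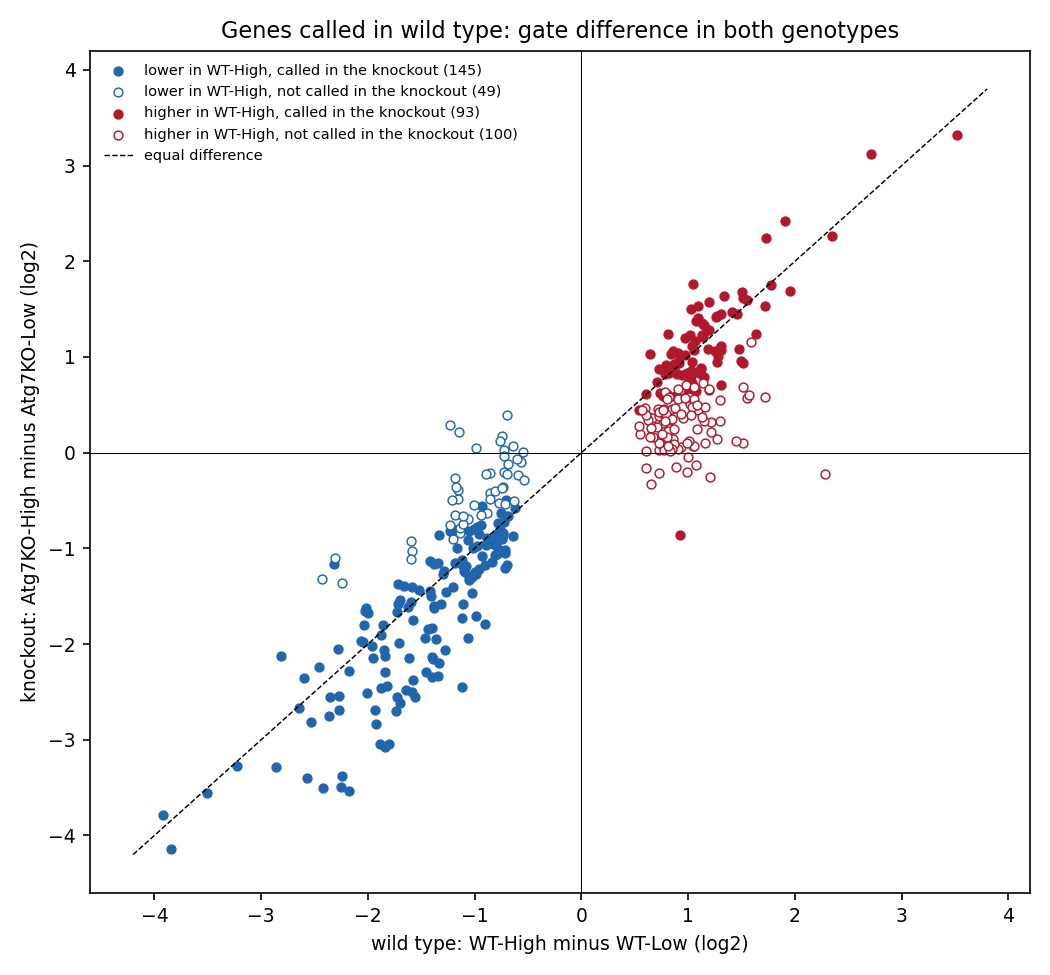
Difference between the EGFP high and EGFP low gates (log2) in wild type (horizontal axis) and in the knockout (vertical axis) for the 193 and 194 genes called in wild type. Filled points were also called in the knockout, 1 of them (Ogfr) in the opposite direction, and the dashed line marks equal differences.

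Whether the gate difference itself depended on the genotype was tested as the wild-type minus the knockout difference. In limma 1 gene was called (0.0063% of those tested), and it was not called in wild type alone. Without adjustment 2225 genes had p under 0.05, 83 of them called in wild type. The count was 0 with the stricter filter and 4 without WT-Low-341. The called gene, the predicted gene Gm12292, had differences of -0.54 in wild type and 1.79 in the knockout. The next smallest p belonged to the ubiquitin ligase gene Rnf5, with 0.55 and -1.62 (adjusted p = 0.0593). The opioid growth factor receptor gene Ogfr was called higher in wild type and lower in the knockout, at 0.92 and -0.86, without passing in the test of the difference (adjusted p = 0.126). No member of the 28 lists was called for the difference, and 14% of all genes had an unadjusted p under 0.05. By list this count ran from 0 of 26 brush border, 0 of 21 EGF receptor and 0 of 11 stromal genes, with 1 of 21 goblet and 2 of 30 Lgr5 stem cell genes, to 5 of 13 MHC class II genes. Next to the highest share were 13 of 37 G2 and mitosis, 7 of 20 cholesterol synthesis, 8 of 24 lipid handling, 8 of 26 glycolysis, 10 of 33 oxidative phosphorylation and 9 of 34 S phase genes.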

How the data were processed

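RNA of sorted crypt cells was measured on 14 arrays, 1 per sample. The deposited log2 values, 1 per probe set and array, were made by the authors with RMA in Affymetrix Expression Console (submitters' processing notes). Versions were not given in the sources used here. Groups came from the sample titles. Arrays give no read depth. Of 25429 probe sets, 24675 had 1 gene symbol in the platform annotation, and the rest were left out (754 with none and 0 with several).

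Group means of all 14 arrays were fitted in R 4.3.3 by limma 3.58.1 (lmFit, then eBayes; residual degrees of freedom 10) and compared two-sided, with Benjamini-Hochberg adjustment over the 15873 genes tested. SE values come from this fit, SD values from the samples. The code was tested on simulated data. The markers, the 28 gene lists and the comparison itself were chosen with earlier results of these data known, so counts over a list are descriptions beside those over all genes and no list was tested. Named genes are the 4 markers, the 15 largest rises and 15 largest falls among called genes without overlap, per list up to 4 called members by p (2 where none was called), and the 5 smallest p of the genotype difference, predicted and small RNA genes left out; further list members are named to show the range. Likeness to Lgr5 was not ranked, because Lgr5 itself was separated between the gates. Alternatives changed the arrays in the fit, filter, normalization, prior, array weights, replicate block, covariates and samples. Promoters and genes were matched to RefSeq by gene ID.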

Additional observations from a re-analysis of the deposited data

Results flagged for a closer look

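Among 113 sets of 4 EGFP low values examined, 7 held a sample far from the other 3, and chance alone flags about 1 in 20 such sets. WT-Low-411 was that sample in 4 of them. Axin2 read 6.48 there against 7.38 to 7.46 in the others, Cd81 10.32 against 10.80 to 10.84, Myl7 7.52 against 7.13 to 7.19 and Rdh9 5.02 against 4.44 to 4.45. For Axin2 and Cd81 the distant sample lay farther from the EGFP high gate, and for Rdh9 nearer to it. WT-Low-341 was the distant sample in the other 3. Vim read 6.33 there against 7.87 to 8.11. The mean over the enteroendocrine hormone and granule list was 6.87 against 7.48 to 7.60, and the mean over the enteroendocrine transcription factors was 5.23 against 5.71 to 5.81. The cause was not tested.

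The gate difference of the predicted gene Gm12292 differed between the genotypes, by -2.33 as wild type minus knockout (limma, adjusted p = 0.00039). In wild type it read 5.08, 4.62 and 4.58 in the EGFP high samples and 5.10, 5.27, 5.41 and 5.43 in the EGFP low samples.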

How the results depend on the processing

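The 18 alternatives changed 1 choice each, and no gene called in wild type changed direction under any in which it was tested. Of these calls, 318 were lost when some single sample was left out and 194 under some other setting. Leaving out 1 wild-type sample gave 56 to 155 genes called higher and 44 to 197 called lower, which leaves 2 or 3 samples in a gate. Array weights gave 642 higher and 559 lower. Refitting with the replicate block on the title number gave 226 higher and 219 lower (correlation within blocks 0.0732). The numbers are shared by 3 pairs of samples, and the labels do not say whether a shared number is the same mouse. Deviations from the group means correlated at 0.115 and 0.182 in the knockout pairs. For WT-Low-411 and WT-High-411, the only wild-type pair, the correlation was -0.0403. Samples were not taken as pairs in the main fit, and these correlations do not settle whether they are. The wild-type median difference of all genes ranged from -0.0065 to 0.0888. In the knockout, median centring gave 446 genes higher, leaving out the arrays of narrowest spread 630 lower, and the array SD as a covariate 264 higher and 231 lower. For the genotype difference the count was 0 with the strict filter, 2 with array weights, 2 with the replicate block and 1 to 4 with 1 sample left out. The causes were not tested.

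List medians near 0 changed sign. For reserve stem cell markers the median was 0.62 with the strict filter, 0.0089 without the narrowest arrays, 0.0556 with the SD covariate and -0.0533 to 0.0089 with 1 sample left out. For glycolysis it was 0.0054 with median centring and -0.0885 to 0.0436 with 1 sample left out. For EGF receptor genes it was -0.0083 without the narrowest arrays and -0.0566 to 0.1576 with 1 sample left out. Medians of fatty acid oxidation, oxidative phosphorylation and tuft genes also lay on both sides of 0. Among the fifth of genes with the lowest levels 13 were called higher and 8 lower, and among the fifth with the highest levels 55 and 74.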

Other observations

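Genes in this section were chosen after their values were seen and belong to no list, so they are values only; a range after an adjusted p is over the alternatives. Called genes higher in EGFP high cells included some of ion transport. The chloride channel gene Cftr differed by 0.90 (SE 0.21, adjusted p = 0.0381; 0.0101 to 0.146), the potassium channel subunit Kcne3 by 1.03 (SE 0.24, adjusted p = 0.0376; 0.00546 to 0.167), the intracellular channel protein Clic6 by 0.99 (SE 0.16, adjusted p = 0.00637) and the carbonic anhydrase Car12 by 1.13 (SE 0.23, adjusted p = 0.0223; 0.00286 to 0.105). Of these only Clic6 passed under every alternative. The carbonic anhydrase Car4 was lower, at 6.72, 7.09 and 7.58 in the EGFP high samples and 9.71, 8.97, 8.78 and 8.56 in the EGFP low samples (difference -1.88, SE 0.32, adjusted p = 0.00760), in every alternative. Noxo1 (0.81, SE 0.18, adjusted p = 0.0278) and Noxa1 (0.80, SE 0.17, adjusted p = 0.0223), the organiser and activator subunits of the NADPH oxidase Nox1, were both called higher, Noxo1 not on leaving out WT-Low-407, WT-Low-409 or any single EGFP high sample and Noxa1 not on leaving out WT-Low-407, WT-Low-409, WT-High-388 or WT-High-411 (0.00698 to 0.113 and 0.0106 to 0.130 over the alternatives).

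Called genes lower in EGFP high cells included genes of granule transport and of the endoplasmic reticulum. The small GTPases of granule docking Rab27a (-2.07, SE 0.36, adjusted p = 0.00917; 0.000767 to 0.0534), Rab27b (-1.19, SE 0.28, adjusted p = 0.0401; 0.00686 to 0.178) and Rab3d (-0.83, SE 0.21, adjusted p = 0.0483; 0.00652 to 0.164) and the granule proteins Sytl4 (-0.64, SE 0.14, adjusted p = 0.0322; 0.00822 to 0.125) and Sytl5 (-1.29, SE 0.24, adjusted p = 0.0134; 0.00181 to 0.0714) were lower beside Sytl2. So were the chaperone genes Dnajc3 (-0.83, SE 0.20, adjusted p = 0.0401; 0.00481 to 0.158), Dnajc10 (-1.21, SE 0.22, adjusted p = 0.0123; 0.00123 to 0.0553) and Pdia5 (-1.38, SE 0.34, adjusted p = 0.0479; 0.00447 to 0.178), and the coat gene Sec24d (-1.33, SE 0.25, adjusted p = 0.0141; 0.000669 to 0.0803). Sytl5 was under the 40th percentile on all EGFP high arrays, so the size of its difference is uncertain. Each of these 9 lost its call without at least 1 of the 7 samples.

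The second largest gain of all called genes was that of the uncharacterised transcript A930009A15Rik, which the naming rule leaves out. It read 7.30, 6.74 and 7.54 in the EGFP high samples and 4.23, 4.65, 4.58 and 4.46 in the EGFP low samples, 6.56-fold higher in EGFP high cells (difference 2.71, SE 0.27, adjusted p = 0.000247), passed under every alternative, and differed by 3.12 in the knockout. Of 214 microRNA genes tested, Mir692-1 was called, lower at -0.73 (SE 0.17, adjusted p = 0.0369), and it lost the call on leaving out WT-Low-341, WT-Low-409, WT-Low-411 or any single EGFP high sample; such a probe set can read the precursor transcript rather than the mature microRNA.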
